A study of Mus musculus with 6 samples.

Results

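Eepd1 and 7 genes of the liver X receptor (LXR) cholesterol efflux pathway were followed through the nuclei of mouse white adipose tissue. Eepd1 was chosen by its higher level in subcutaneous adipocytes of old mice in these same libraries, so all of its values with age are given as a description and without a test. The other members (Abca1, Abcg1, Nr1h2, Nr1h3, Mylip, Lpcat3 and Apoe) were chosen for their place in the pathway. The 8 genes were found by symbol among the 56980 genes listed, each exactly 1 time.

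The 6 libraries of single-nucleus RNA sequencing (snRNA-seq) came from white adipose tissue of untreated female C57BL/6J mice, with 2 libraries per group. The young group, of inguinal fat at 2 months, stood for subcutaneous adipose tissue (SAT 2 months). Both old groups were labelled 24 months and held inguinal fat (SAT 24 months) and gonadal, or visceral, fat (VAT 24 months). For these old mice the design text of the series states 26 months, and the age of the labels is kept here. Visceral fat of young mice was not analysed here. The labels call every sample adipocytes, but the libraries held many other cell classes.

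LXRs are nuclear receptors that bind oxysterols, which are oxidized forms of cholesterol, and switch on genes as heterodimers with the retinoid X receptors (RXRs). Their targets move cholesterol out of cells: ABCA1 loads lipid-poor apolipoproteins, ABCG1 passes sterol to formed HDL particles and APOE accepts it. EEPD1, a membrane-attached protein with an endonuclease-like domain, has been described in macrophages as an LXR target that supports efflux through ABCA1. MYLIP, also called IDOL, marks the LDL receptor for degradation, and LPCAT3 puts polyunsaturated acyl chains into phospholipids.

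On GRCm39, with GENCODE release M39, Eepd1 lies on the plus strand of chromosome 9 at 25353606 to 25516377, with 8 exons in its canonical transcript. Abca1 lies on the minus strand of chromosome 4 at 53030787 to 53159900 (50 exons), and Abcg1 on the plus strand of chromosome 17 at 31276649 to 31336969 (15 exons). The receptor genes are Nr1h3, which encodes LXRα, on chromosome 2 at 91014394 to 91033417 (minus strand, 10 exons), and Nr1h2, which encodes LXRβ, on chromosome 7 at 44199036 to 44203406 (minus strand, 9 exons). Mylip lies on chromosome 13 at 45543215 to 45565501 (plus strand, 7 exons), Lpcat3 on chromosome 6 at 124639765 to 124684440 (plus strand, 13 exons) and Apoe on chromosome 7 at 19430034 to 19434947 (minus strand, 4 exons). On its own strand, Eepd1 holds the processed pseudogene Gm8049, Abcg1 the rRNA gene Gm55872, Mylip the noncoding gene Gm56579 and Nr1h3 the noncoding gene Gm13783. On the opposite strand Nr1h3 overlaps the start of Acp2, Lpcat3 overlaps Emg1 and noncoding genes, Apoe overlaps the noncoding gene Gm71725, and small RNA genes lie within Eepd1 and Nr1h3. The setting of strand in the counting is not given in the sources used here, so reads of these overlapping genes may not be told apart.

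The promoters of Eepd1 and of both sterol transporters are shown because the LXR heterodimer binds a direct repeat with a spacer of 4 bases (DR4). The 250 bases before each canonical start were searched on both strands for the letters AGGTCA, a gap of 4 bases, and AGGTCA again, so that 12 letters were compared. Capitals mark the window with the fewest mismatches.
Eepd1, chr9:25392550-25392799, plus strand: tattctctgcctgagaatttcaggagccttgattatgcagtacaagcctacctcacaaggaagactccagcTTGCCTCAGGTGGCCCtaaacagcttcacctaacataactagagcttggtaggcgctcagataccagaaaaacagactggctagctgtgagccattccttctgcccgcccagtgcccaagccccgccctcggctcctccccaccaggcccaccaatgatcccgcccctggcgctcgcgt
Abca1, chr4:53159901-53160150, minus strand: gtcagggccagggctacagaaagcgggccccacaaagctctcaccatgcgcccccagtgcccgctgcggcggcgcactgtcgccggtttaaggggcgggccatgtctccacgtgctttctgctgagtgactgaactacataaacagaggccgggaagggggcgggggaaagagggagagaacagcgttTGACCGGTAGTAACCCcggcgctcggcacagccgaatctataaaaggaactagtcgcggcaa
Abcg1, chr17:31276411-31276660, plus strand: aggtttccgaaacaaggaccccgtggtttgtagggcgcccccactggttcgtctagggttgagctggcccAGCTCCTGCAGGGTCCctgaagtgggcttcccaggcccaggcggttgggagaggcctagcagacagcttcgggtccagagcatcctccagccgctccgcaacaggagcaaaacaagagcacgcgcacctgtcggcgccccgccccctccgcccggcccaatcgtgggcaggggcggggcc
The best window held 3 mismatches in Abca1, at -62 to -47 from the start, and 3 in Lpcat3. It held 4 in Eepd1, at -179 to -164, in Abcg1, at -180 to -165, in Nr1h2 and in Apoe, 5 in Nr1h3 and 6 in Mylip. Among 21770 promoters of the same length, 18.0% held a window with at most 3 mismatches and 70.7% with at most 4. For each member, many promoters thus held a window with as few mismatches or fewer. A match is only a run of letters, and no member had a perfect one in this stretch. The canonical start lies 39194 bases inside the annotated extent of the gene in Eepd1, 7883 in Nr1h3, 1061 in Apoe, 142 in Lpcat3 and 0 to 26 in the other members.

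The libraries held 6158 to 11341 nucleus barcodes and 8061862 to 16226690 UMIs (unique molecular identifiers, each a captured RNA molecule). Of 50859 barcodes, 27074 nuclei passed the filter (2490 to 5776 per library), with a median of 1380 to 1878 UMIs, and libraries shared at most 0.769% of their barcodes. Classes were rebuilt here from marker genes, and "-like" is implied in every class name. Adipocytes numbered 887 and 505 in SAT at 2 months, 674 and 2186 in SAT at 24 months, and 2901 and 152 in VAT at 24 months, and their 8 markers summed to 12606 to 16505 CPM (counts per 1000000 UMIs), with none of them at 0 in any library. Replicate 2 of VAT stood apart: 1474 of its nuclei fell in unnamed clusters led by genes such as Ovgp1, Cyp11a1 and Dnah12, and its median mitochondrial share was 5.07%. Levels are CPM of UMIs summed per library and class. Free RNA of other cells is counted in them too, and the share of a sum that it makes up was not tested. By the study's description, SAT and VAT of an age came from the same pair of mice, so the old SAT and VAT libraries share animals, but the labels do not say which libraries belong together.

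In adipocytes, Eepd1 stood at 391.7 and 261.1 CPM in the SAT libraries at 2 months, at 2453 and 1569 CPM in the old SAT libraries, and at 2454 and 1686 CPM in VAT at 24 months. The lowest old library was above the highest young one, and the mean of SAT at 24 months was 6.16 times that at 2 months (log2 difference 2.78 after TMM scaling, SE 0.376). Each nucleus thinned to 1000 UMIs, a UMI of Eepd1 was found in 25.6% and 18.8% of adipocytes at 2 months, in 79.8% and 69.1% in SAT at 24 months and in 81.1% and 70.4% in VAT. Without thinning these shares were 38.7% and 24.95%, 89.3% and 81.7%, and 91.3% and 86.8%. In T cells, which are not known for this gene, the thinned share was 1.22% to 3.95% (median depth 1237 to 1424 UMIs, against 1542 to 2252 in adipocytes), in the 5 libraries with at least 20 of these cells. In VAT replicate 1, which had 6 T cells, the thinned share was 7.97% in FAPs, 6.25% in mesothelial nuclei and 21.8% in macrophages, above the T cell shares of the other libraries, against 81.1% in its adipocytes. The intervals of these shares (exact, 95%) were 22.7% to 28.6% and 15.5% to 22.5% at 2 months and lay between 62.5% and 82.8% at 24 months, and they cover counting error only.

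**Figure D1:**
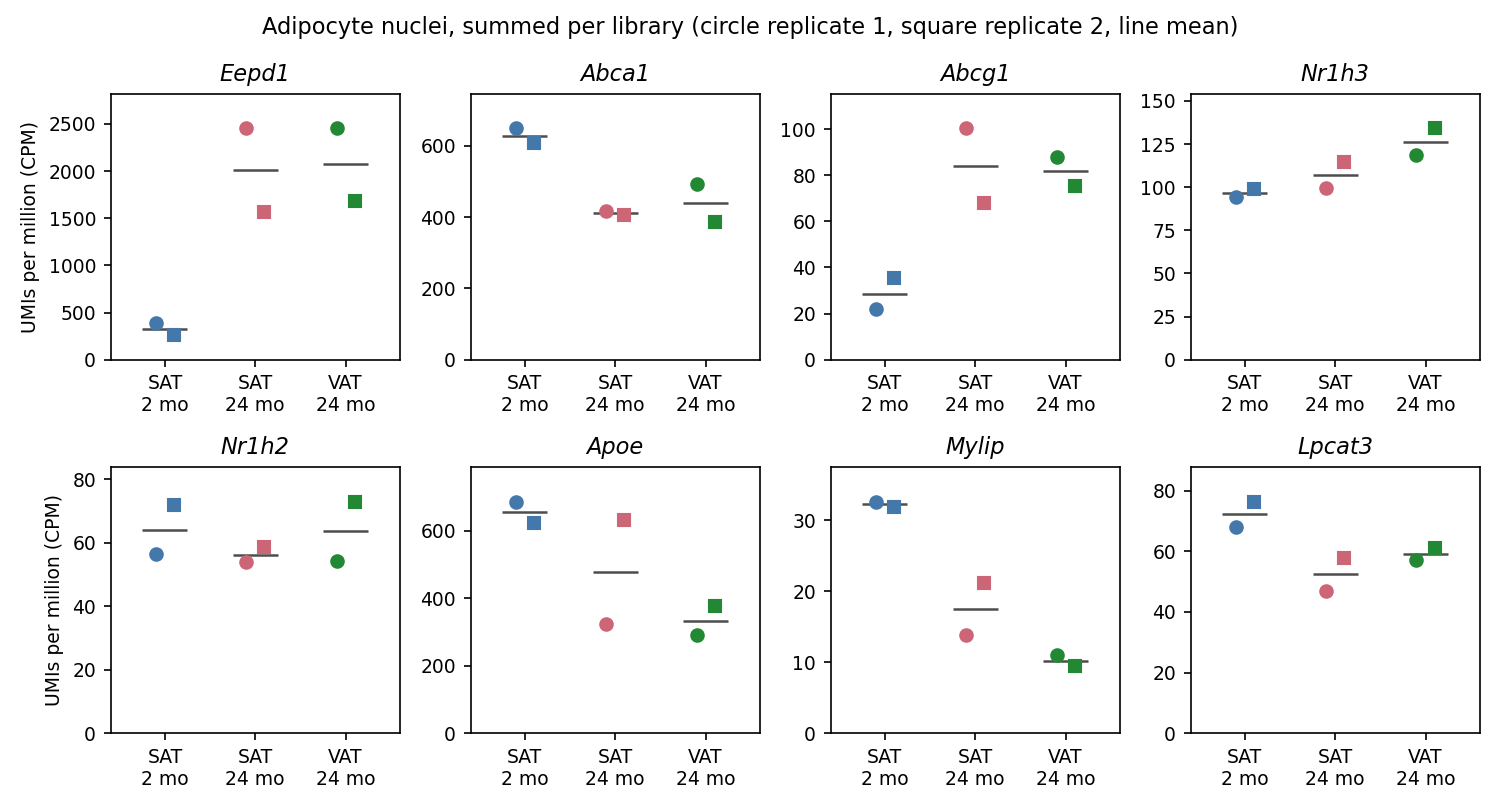
Levels of the 8 genes in adipocytes (CPM, linear axis from 0) in the 3 groups; circles are replicate 1, squares replicate 2 and lines the mean of 2 libraries. Eepd1 and Abcg1 lay higher in both depots at 24 months than in SAT at 2 months, Abca1 and Mylip lay lower, and Nr1h2 overlapped.

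The 2 LXR receptor genes showed no age difference past the test in adipocytes. Nr1h3 was at 94.1 and 99.2 CPM in young SAT, 99.6 and 114.7 CPM in SAT at 24 months, and 118.6 and 134.2 CPM in VAT. The libraries did not overlap between ages, but by a narrow gap (log2 difference 0.31, SE 0.23, edgeR's quasi-likelihood test, adjusted p = 0.399). Nr1h2 was at 56.6 and 71.8 CPM in young SAT, 54.0 and 58.6 CPM in SAT at 24 months, and 54.2 and 73.0 CPM in VAT, and every group overlapped (log2 difference with age -0.01, SE 0.26, edgeR adjusted p = 0.983). The sign of that value turned under other settings, as listed with the processing.

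Of the transporters, 1 passed the test with age in adipocytes. Abcg1, which passes cholesterol to HDL, rose with age in SAT adipocytes: it was at 21.8 and 35.3 CPM at 2 months and at 100.3 and 67.9 CPM at 24 months, and VAT lay at 87.9 and 75.3 CPM. All 4 old libraries were above both young ones, and the log2 difference with age in SAT was 1.76 (SE 0.33, edgeR adjusted p = 0.0046). This call was lost without SAT 2 months replicate 1 (log2 difference 1.44, edgeR adjusted p = 0.0845), and the other 5 libraries could each be left out without losing it. The thinned share of adipocytes with an Abcg1 UMI was 1.58% and 3.17% at 2 months, against 8.61% and 5.31% in SAT and 7.93% and 7.24% in VAT at 24 months, while T cells, a class that holds Abcg1 itself, had 2.63% to 10.8%. Without thinning these adipocyte shares were 3.72% and 4.95%, 16.2% and 11.1%, and 16.6% and 15.8%. In adipocytes, 9 macrophage markers summed to 90.8 and 114.0 CPM at 2 months, 29.1 and 88.5 CPM in SAT at 24 months, and 101.7 and 47.1 CPM in VAT. The 6 markers of mature dendritic cells, the class highest in Abcg1, summed to 56.0 and 122.0, 22.8 and 25.8, and 4.12 and 9.42 CPM in the same order. The part of other cells' RNA in the Abcg1 level was not tested.

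Abca1, the transporter for lipid-poor apolipoproteins, was at 649.0 and 606.6 CPM in adipocytes at 2 months, 418.0 and 404.7 CPM in SAT at 24 months, and 491.6 and 386.1 CPM in VAT. Old libraries lay below young ones without overlap, at 0.655 times the mean in SAT, but the difference did not pass the test (log2 difference -0.45, SE 0.26, edgeR adjusted p = 0.270). The thinned share with a UMI was 41.9% and 36.2% at 2 months and 29.0% to 35.1% at 24 months, and without thinning 58.9% and 52.7%, and 45.7% to 59.4%. Among adipocytes with an Eepd1 UMI, Abca1 was found in 40.5% and 40% at 2 months, 28.996% and 28.7% in SAT at 24 months, and 35.02% and 32.7% in VAT. Among those without, it was in 42.4% and 35.4%, 30.1% and 29.6%, and 35.6% and 24.4%, so its share was lower beside Eepd1 in 4 libraries and higher in 2. Abcg1 was found with Eepd1 in 2.20% and 5.26%, 8.36% and 5.30%, and 8.41% and 7.48%, and without it in 1.36% and 2.68%, 9.56% and 5.33%, and 5.84% and 6.67%, which is higher beside Eepd1 in 4 libraries and lower in both of SAT at 24 months. These are descriptions over nuclei of single libraries.

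Apoe, the sterol-accepting apolipoprotein, was at 686.5 and 622.6 CPM in adipocytes at 2 months, 323.2 and 631.6 CPM in SAT at 24 months, and 290.1 and 376.7 CPM in VAT. The 2 old SAT libraries differed from each other by more than the ages did (log2 difference -0.30, SE 0.31, edgeR adjusted p = 0.559). Mylip was at 32.6 and 31.9 CPM at 2 months, 13.8 and 21.1 CPM in SAT at 24 months, and 11 and 9.42 CPM in VAT, so that the 3 groups did not overlap (age log2 difference -0.69, SE 0.36, edgeR adjusted p = 0.221). Lpcat3 was at 68.0 and 76.4 CPM at 2 months, 47.1 and 57.7 CPM in SAT at 24 months, and 57.2 and 61.2 CPM in VAT (age log2 difference -0.29, SE 0.25, edgeR adjusted p = 0.478).

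In all, 1 of the 7 members other than Eepd1 passed the test with age in SAT adipocytes, Abcg1. All 7 passed the filter on low counts, and their median log2 difference was -0.29. Over all 12901 genes tested in adipocytes, 14.3% were called, against 1 in 7 of the members. The CPM ranges of the ages did not overlap for 5 of the 7, where 57.8% of genes with at least 10 UMIs did not overlap, and nothing particular to the members can be read from that count.

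Between the depots at 24 months, 0 of the 7 members other than Eepd1 passed the test in adipocytes (edgeR, background 0.132%, with 0 at an unadjusted p under 0.05 and 0 by DESeq2). This comparison shares the SAT 24 months libraries with the age comparison, and its groups share mice, which could not be matched. Eepd1, given without a test since old SAT is where it was chosen, differed by 0.07 on the log2 scale (SE 0.35), and by -0.30 to 0.44 with single libraries left out. The log2 difference of Abca1 was 0.13 (SE 0.26, edgeR adjusted p = 0.958), of Abcg1 0.04 (SE 0.30, edgeR adjusted p = 0.989) and of Mylip -0.70 (SE 0.39, edgeR adjusted p = 0.771). With single libraries left out, the signs of Abca1 (-0.13 to 0.31) and Abcg1 (-0.30 to 0.34) turned as well. The ranges of the depots did not overlap for 2 of the 7, Mylip, lower in VAT, and Nr1h3, higher in VAT, against 33.1% of genes with at least 10 UMIs.

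**Figure D2:**
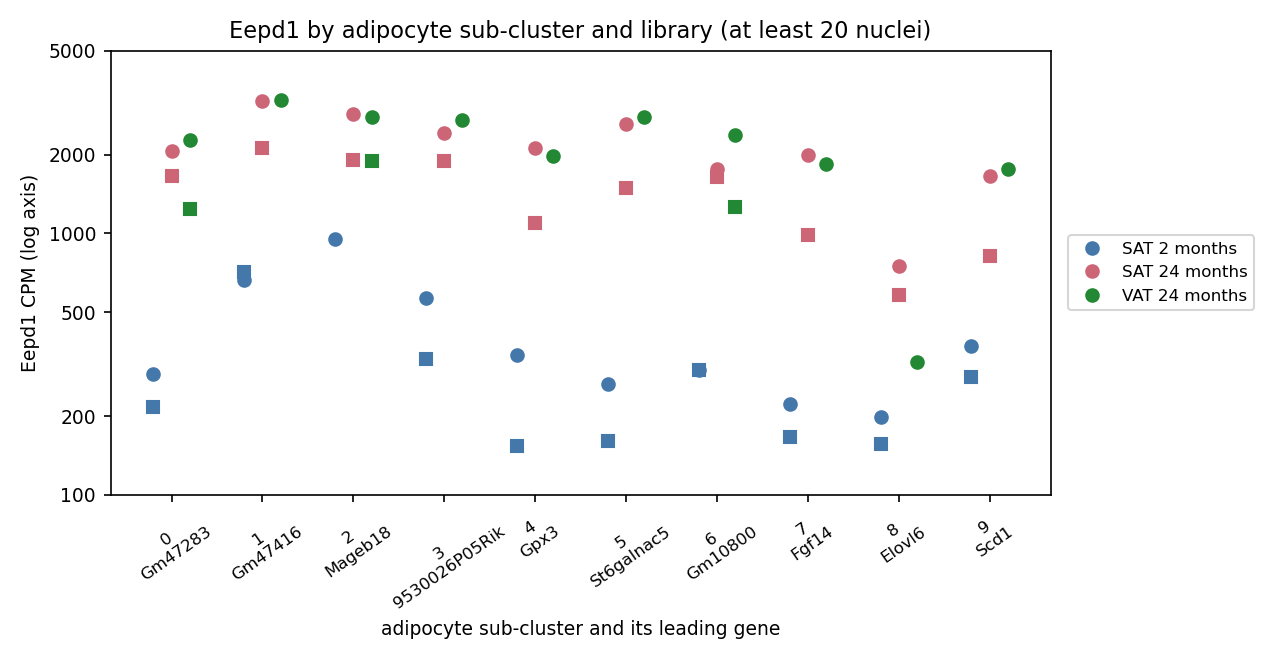
Eepd1 level (CPM, log axis) in 10 adipocyte sub-clusters, named by number and leading gene; circles are replicate 1, squares replicate 2, and only libraries with at least 20 nuclei of a sub-cluster are drawn. Both ages of SAT are separated in each sub-cluster, and sub-cluster 8 lies lowest in most libraries.

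Across 10 sub-clusters of adipocytes, Eepd1 in SAT at 24 months was at 2.51 to 9.61 times its mean at 2 months (median 5.26), with 1 young library only in sub-cluster 2. These are parts of the same nuclei by which Eepd1 was chosen, and nothing is read from their number. Sub-cluster 8, led by the lipid synthesis gene Elovl6 and by Cidea, a lipid droplet protein, had at least 20 nuclei in 5 libraries. It had the lowest Eepd1 in 4 of these 5. There it was at 198.0 and 157.1 CPM at 2 months, 753.4 and 583.6 CPM in SAT at 24 months and 322.8 CPM in VAT replicate 1. Sub-cluster 1, led by the predicted gene Gm47416, was at 663.7 and 712.7 CPM at 2 months and reached 3215 CPM in SAT at 24 months and 3249 CPM in VAT, both in replicate 1. Abca1 in SAT at 24 months was at 0.503 to 0.911 times the young mean over the 10 sub-clusters, and Abcg1 at 1.40 to 6.92 times. Sub-clusters were cut from these nuclei, and their levels are descriptions.

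**Figure D3:**
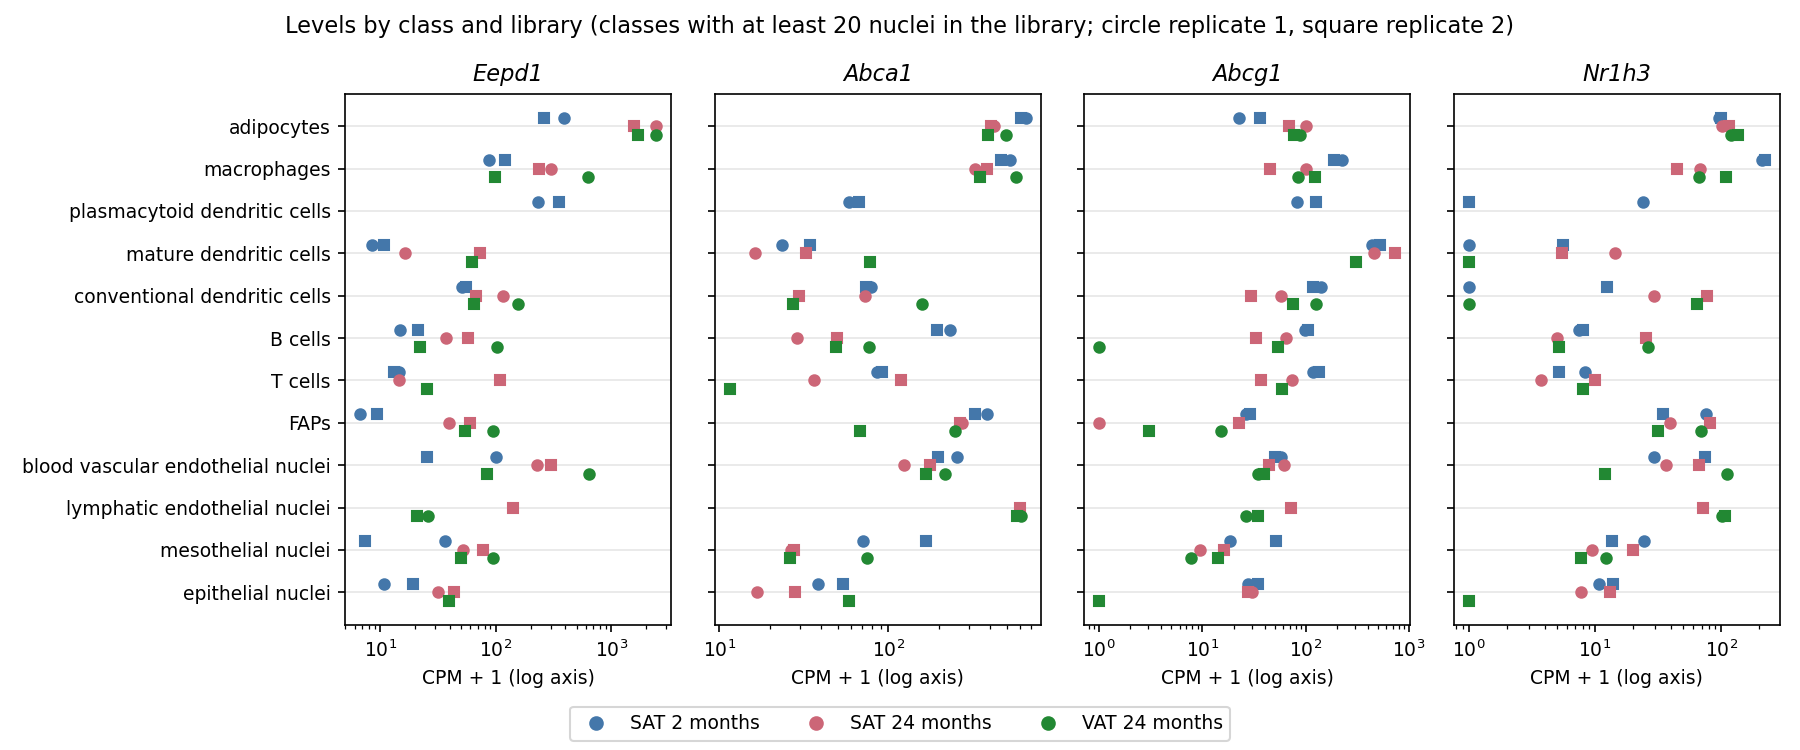
Levels of Eepd1, Abca1, Abcg1 and Nr1h3 (CPM plus 1, log axes) by cell class and library, for classes with at least 20 nuclei in the library; colours are the groups, circles replicate 1 and squares replicate 2. Adipocytes at 24 months lead for Eepd1 and mature dendritic cells for Abcg1.

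Over the classes, Eepd1 was highest in adipocytes at 24 months, at 1569 to 2454 CPM in the 4 old libraries. Plasmacytoid dendritic cells, which make interferon in response to viruses, reached 20 nuclei only in SAT at 2 months (49 and 97 nuclei). At that age they held 229.8 and 349.9 CPM, beside 391.7 and 261.1 CPM in adipocytes, so that adipocytes lay higher in replicate 1 and the dendritic cells in replicate 2. Macrophages were at 86.4 and 119.4 CPM at 2 months, 298.4 and 235.4 CPM in SAT at 24 months, and 629.2 and 97.5 CPM in VAT. Blood vascular endothelial nuclei were at a like level, with 98.5 and 24.4 CPM at 2 months, 228.3 and 299.1 CPM in old SAT, and 642.2 and 82.7 CPM in VAT. Fibro-adipogenic progenitors (FAPs), from which adipocytes form, were at 5.70 and 8.32 CPM at 2 months, 38.6 and 58.6 CPM in SAT at 24 months and 92.7 and 53.0 CPM in VAT.

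Eepd1 lay higher at 24 months without overlap in 9 of the 10 SAT classes compared, T cells being the exception. In these classes 10.8% to 25.7% of genes with at least 10 UMIs did so. Adipocytes, by which Eepd1 was chosen, are among the 9. The other classes come from the same libraries and also held UMIs of adipocyte markers, so nothing is read from that count. The 8 adipocyte markers summed to 907.1 and 711.7 CPM in macrophages at 2 months, to 1533 and 3793 CPM in SAT at 24 months, and to 4537 and 529.1 CPM in VAT. In VAT the Eepd1 of macrophages too was higher in replicate 1. In both SAT groups it was higher in the replicate with the lower marker sum. Per 100 UMIs of these markers, Eepd1 had 2.07 to 16.3 UMIs in adipocytes, 6.21 to 19.5 in macrophages, 0.800 to 17.4 in FAPs and 3.95 to 15.1 in T cells. The highest adipocyte value was also passed in 1 to 3 libraries each by macrophages and FAPs and by mesothelial nuclei (up to 35.5), skeletal muscle nuclei (28.8), conventional dendritic cells (27.6) and mature dendritic cells (26.7), and by both of plasmacytoid dendritic cells (62.5 and 98.1). Macrophages, mesothelial nuclei and T cells each lay above the adipocytes of their own library in 4 libraries. In the macrophage sub-cluster led by Retnla and then Mrc1, Eepd1 was at 154.9 and 25.3 CPM at 2 months, 702.2 CPM in SAT 24 months replicate 2, and 2054 and 88.8 CPM in VAT. In the one led by Retnla and then Lyz1 it was at 122.2 and 0 CPM in VAT. The part of adipocyte RNA in the Eepd1 level of the other classes was not tested.

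Abca1 was at 571.2 to 603.8 CPM in lymphatic endothelial nuclei, which reached 20 nuclei in 3 libraries, all of 24 months. At that age adipocytes lay below them without overlap, at 386.1 to 491.6 CPM, and so did macrophages, at 323.2 to 568.5 CPM, while adipocytes and macrophages overlapped. Adipocytes at 2 months, with 606.6 and 649.0 CPM, lay above all 3. Abcg1 was highest in mature dendritic cells, which carry antigen to lymph nodes, at 307.2 to 736.4 CPM, and this range did not overlap that of any class after it. Apoe was highest in macrophages, at 2561 to 9569 CPM, above the 617.8 to 1934 CPM of blood vascular endothelial nuclei without overlap. Nr1h3 was at 94.1 to 134.2 CPM in adipocytes and 43.6 to 220.7 CPM in macrophages. Mylip was highest in endothelial nuclei (51.6 to 296.5 CPM) and B cells (127.8 to 225.9 CPM), and adipocytes were among its lowest classes at 9.42 to 32.6 CPM. Lpcat3 had its highest median in epithelial nuclei, at 92.8 to 113.8 CPM, and this range overlapped those of mesothelial nuclei (51.7 to 116.9 CPM) and T cells (45.1 to 101.1 CPM). Nr1h2 was at 54.0 to 73.0 CPM in adipocytes and 51.7 to 113.0 CPM in macrophages, and its highest class, conventional dendritic cells (28.6 to 155.9 CPM), overlapped the next.

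Macrophages, the cells in which LXR-driven efflux is best known, had a different age difference from adipocytes for 2 members, by the test of that difference given further on. Abcg1 was at 222.6 and 184.7 CPM in SAT macrophages at 2 months, 99.5 and 43.6 CPM in SAT at 24 months, and 83.1 and 121.8 CPM in VAT (log2 difference with age -1.55, SE 0.47). Nr1h3 was at 209.3 and 220.7 CPM at 2 months, 66.3 and 43.6 CPM in SAT at 24 months, and 65.2 and 107.9 CPM in VAT (log2 difference -1.94, SE 0.44). Both young libraries lay above all 4 old ones for each gene, yet neither passed the test within macrophages, with edgeR adjusted p = 0.222 for Abcg1 and 0.151 for Nr1h3.

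No member was called with age in macrophages: 0 of 7 by edgeR, against a background of 0% of 8516 genes, with 2 members at an unadjusted p under 0.05, and 0 of 7 by DESeq2. The ranges of the ages did not overlap for 6 of the 7, each lower at 24 months, against 28.2% of genes with at least 10 UMIs in these libraries that lay lower in that way (44.3% in either direction, counting UMIs over all 6 libraries). For Mylip the gap was narrow, from 99.5 CPM in the higher old library to 99.7 CPM in the lower young one. For Lpcat3 it ran from 49.7 to 51.8 CPM, with 101 UMIs over the 6 libraries. With VAT 24 months replicate 1 left out, both genes passed (edgeR adjusted p = 0.0468 for Abcg1 and 0.0132 for Nr1h3), and also with VAT 24 months replicate 2 left out (0.0257 and 0.00502). Nr1h3 passed as well when low counts were not filtered (log2 difference -1.99, edgeR adjusted p = 0.0157). Abca1 in macrophages was at 525.0 and 464.0 CPM at 2 months and 323.2 and 381.5 CPM in SAT at 24 months (log2 difference -0.36, SE 0.41, edgeR adjusted p = 0.759), and Apoe was at 9569 and 4083 against 2561 and 3527 CPM (log2 difference -1.05, SE 0.52, edgeR adjusted p = 0.401).

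The age difference itself was compared between the classes in 1 fit over the SAT libraries. For Abcg1 the difference in adipocytes exceeded that in macrophages by 3.31 on the log2 scale (SE 0.45, edgeR adjusted p = 2.10e-10), and for Nr1h3 by 2.30 (SE 0.44, edgeR adjusted p = 2.05e-05). These were 2 of the 7 members, where 5.85% of the 11424 genes tested were called. With each SAT library left out in turn both calls held, at 2.87 to 3.77 for Abcg1 and 1.93 to 2.51 for Nr1h3 (highest edgeR adjusted p 0.00343 and 0.0495). The fit had 2 residual degrees of freedom and took its spread from all genes. Against FAPs, 0 of the 7 were called (background 3.44%, with 1 at an unadjusted p under 0.05 and 0 by DESeq2), and the difference of Abcg1 was 2.21 (SE 0.80, edgeR adjusted p = 0.112), with 0 CPM of Abcg1 in the FAPs of SAT 24 months replicate 1, of which there were 52 nuclei.

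**Figure D4:**
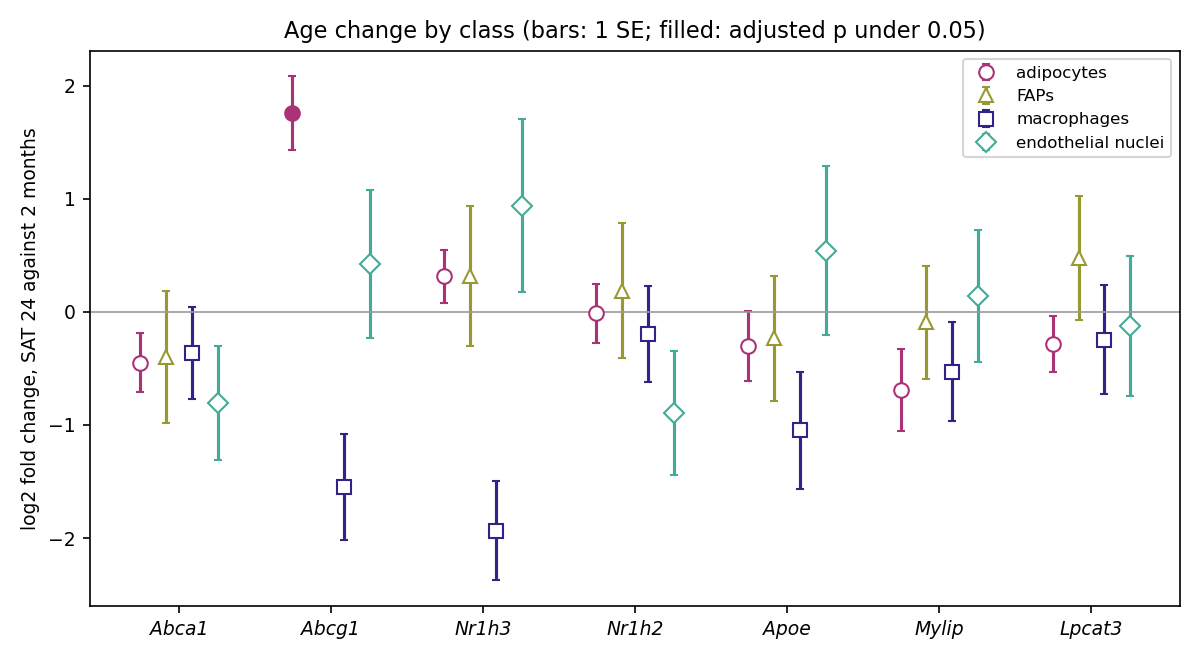
Log2 difference between SAT at 24 months and at 2 months for the 7 members other than Eepd1 in 4 classes, with bars of 1 SE; filled points passed at an adjusted p under 0.05, and Abcg1 was not tested in FAPs. Only Abcg1 in adipocytes is filled, and the macrophage points of Abcg1 and Nr1h3 lie at -1.55 and -1.94.

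Macrophages differed in their makeup between the libraries as well. The sub-cluster led by Spp1, Gpnmb and Lyz2, genes of lipid-laden macrophages, held 36.7% and 44.4% of macrophage nuclei at 2 months, 23.1% and 6.87% in SAT at 24 months, and 16.5% and 39.3% in VAT. Nr1h3 in it was at 388.4 and 422.2 CPM at 2 months and at 159.9 and 207.8 CPM in VAT, and SAT at 24 months had only 15 and 16 of these nuclei, too few for a level. In the larger sub-cluster led by Mrc1, F13a1 and Retnla, markers of resident macrophages, Abcg1 was at 321.1 and 324.1 CPM at 2 months, 108.1 and 21.4 CPM in SAT at 24 months, and 74.2 and 99.3 CPM in VAT. There Nr1h3 was at 122.8 and 45.0 CPM at 2 months (13 and 5 UMIs) and at 21.6 and 25.7 CPM in old SAT (1 and 6 UMIs), counts too few to read a difference from. In the smaller sub-cluster led by Retnla and then Mrc1, Abcg1 was at 77.4 and 75.8 CPM at 2 months and 83.2 CPM in SAT 24 months replicate 2 (3, 3 and 9 UMIs), again too few to read from. The part of the makeup in the difference over all macrophages was not tested.

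**Figure D5:**
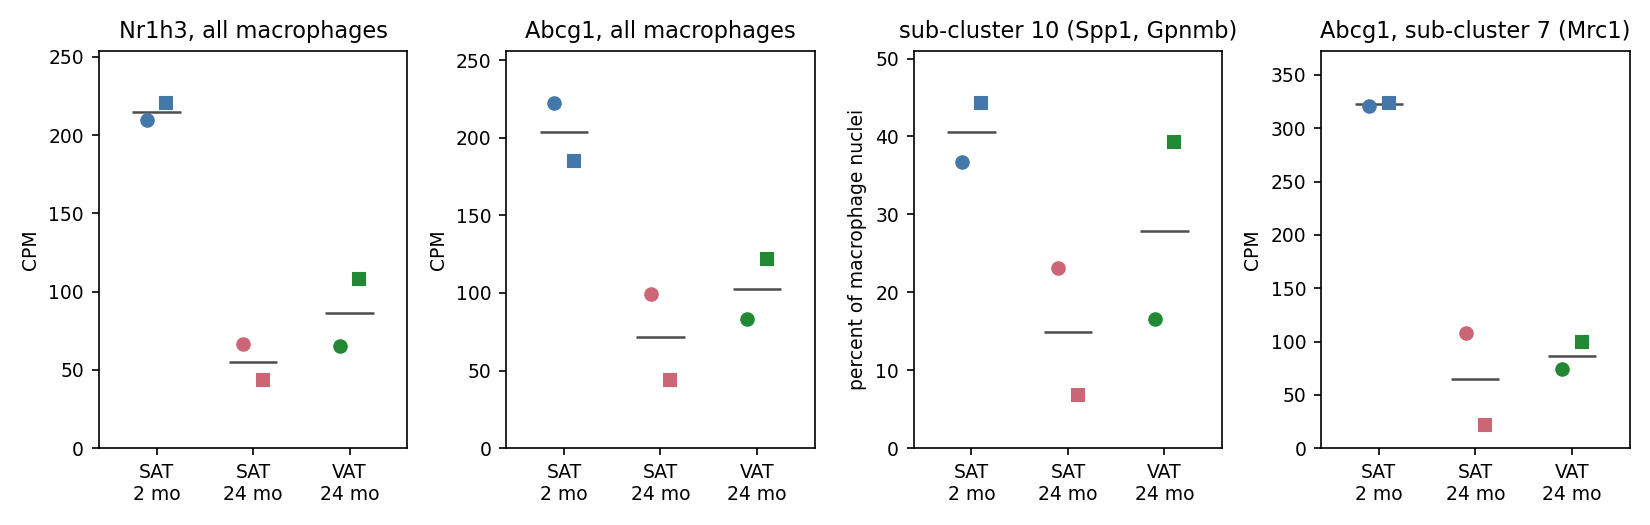
Nr1h3 and Abcg1 in all macrophages, the share of macrophage nuclei in the sub-cluster led by Spp1 and Gpnmb, and Abcg1 in the sub-cluster led by Mrc1, by group; axes are CPM or percent, from 0, circles are replicate 1, squares replicate 2 and lines the mean. Both young libraries lie highest in the panels of Nr1h3 and Abcg1, and in the share panel VAT replicate 2 lies among them.

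In FAPs and endothelial nuclei no member was called with age. In FAPs it was 0 of the 6 tested (edgeR, background 0%, with 0 at an unadjusted p under 0.05 and 0 by DESeq2), Abcg1 having too few counts to be tested, and in endothelial nuclei 0 of 7 (background 0.0253%, with 0 at an unadjusted p under 0.05 and 0 by DESeq2). Between the depots at 24 months, 0 members other than Eepd1 were called by edgeR in macrophages (of 7, background 0.0352%, 0 at an unadjusted p under 0.05, 0 by DESeq2), in FAPs (of 6 tested, background 0%, 0 at an unadjusted p under 0.05, 0 by DESeq2) and in endothelial nuclei (of 7, background 0%, 1 at an unadjusted p under 0.05, 0 by DESeq2). Apoe in FAPs was at 102.8 and 345.6 CPM in SAT against 420.5 and 528.3 CPM in VAT (log2 difference 1.02, SE 0.55, edgeR adjusted p = 0.848). In macrophages the ranges of the depots did not overlap for 2 of the 7, Apoe, higher in VAT, and Nr1h2, lower in VAT, where 32% of genes did not overlap.

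Further classes were tested after the levels by class had been seen. Abca1 fell with age in B cells: it was at 230.7 and 192.1 CPM at 2 months, 28.0 and 48.4 CPM in SAT at 24 months, and 75.8 and 48.1 CPM in VAT. The groups of SAT did not overlap (log2 difference -2.43, SE 0.46, edgeR adjusted p = 0.00631), and Abca1 was 1 of 6 members tested there, where 2.58% of genes were called. The call was lost without SAT 2 months replicate 1 (edgeR adjusted p = 0.126) and without SAT 2 months replicate 2 (0.0569). Over 10 classes of SAT, Abca1 lay lower at 24 months without overlap in 8, T cells and mature dendritic cells being the others, where 18.7% to 40.8% of genes with at least 10 UMIs in a class did so (median of the classes 27.8%).

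Abcg1 in T cells was at 116.9 and 134.5 CPM at 2 months, 73.2 and 36.1 CPM in SAT at 24 months and 57.8 CPM in VAT replicate 2, VAT replicate 1 having 6 T cells. The fall with age passed narrowly (log2 difference -1.01, SE 0.32, edgeR adjusted p = 0.0420, 1 of 6 members tested, background 6.57%), and was lost under DESeq2 (adjusted p = 0.461), with library totals (edgeR adjusted p = 0.0589), with the replicate block (edgeR adjusted p = 0.0948) and without any of SAT 2 months replicate 1, SAT 2 months replicate 2, SAT 24 months replicate 2 or VAT 24 months replicate 2 (edgeR adjusted p from 0.0809 to 0.593). Without SAT 24 months replicate 2 the T cell calls numbered 3 (Abca1, Apoe and Mylip, each lower), and without the filter on low counts 2 (Abcg1 and Apoe, both lower). Abcg1 lay lower at 24 months without overlap in 6 of the 10 SAT classes and higher in 1, adipocytes, beside the 18.7% to 40.8% of genes that lay lower and the 10.8% to 25.7% that lay higher in these classes. Between the depots, VAT replicate 2 alone held at least 20 T cells, mature dendritic cells or epithelial nuclei, so no call is made in these classes. Abca1 in T cells was at 10.5 CPM there (6 UMIs), against 35.2 and 117.3 CPM in SAT, and Abcg1 in mature dendritic cells was at 307.2 CPM, against 454.5 and 736.4 CPM.

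No member other than Eepd1 was called with age in mature dendritic cells (0 of 6 tested by edgeR, background 1.47%, 2 at an unadjusted p under 0.05, 0 by DESeq2). In epithelial nuclei 0 of 7 were called with age (background 7.76%, 2 at an unadjusted p under 0.05, 0 by DESeq2), but Abca1 was called lower with the replicate block, without SAT 2 months replicate 1 and without SAT 24 months replicate 2. In mesothelial nuclei 0 of 5 tested were called with age (background 0%) and 0 of 5 between the depots (background 8.68%), each with 1 at an unadjusted p under 0.05 and 0 by DESeq2. There Abca1 was called lower with age without VAT replicate 2. Between the depots Apoe was called higher in VAT without the filter, Mylip lower without VAT replicate 1, and Abca1 and Apoe higher without VAT replicate 2, where the lone VAT library is assumed to vary like the others.

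The genes whose pattern was most like that of Eepd1 were sought over 34 sums of a library and class with at least 50 nuclei, among 11977 genes, by Pearson's r of log2 CPM. Among the 5 nearest were Gm5627 (r = 0.917), Tshr (0.916), Nnat (0.902) and Tenm4 (0.899), a description over sums that share libraries and depth. Tshr, the thyrotropin receptor, was at 182.8 and 91.2 CPM in adipocytes at 2 months, 1778 and 1823 CPM in SAT at 24 months, and 2027 and 2766 CPM in VAT. Of the members, Nr1h3 ranked 250 (r = 0.693), Abca1 745, Apoe 873, Abcg1 1971, Nr1h2 8223, Mylip 10330 and Lpcat3 10508, so the members were not the genes nearest to Eepd1.

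The wider pathway was followed in adipocytes through 6 lists of 89 genes, of which 70 passed the filter on low counts. With age in SAT, 15 of the 70 were called (7 higher, 8 lower), or 21.4%, against 14.3% of all genes, with a median log2 difference of -0.021 in the lists and -0.0028 over all genes. Of the 15 calls, 6 held with each library left out in turn (Abca8b, Gramd1c, Lrp1, Npc1, Srebf1 and Tgm2), and 9 were lost in at least 1 such fit (Abca8a, Cav1, Gramd1a, Hmgcs1, Mertk, Pltp, Rxra, Rxrg and Sc5d). The count was 9 without SAT 2 months replicate 1, where 4.78% of all genes were called, and 9 without SAT 2 months replicate 2, where 3.42% were. Between the depots 0 of the 70 were called by edgeR, and 1 by DESeq2.

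Among the partners of LXR, 2 of 11 were called, or 18.2% against 14.3% of all genes, so nothing about the list is read from that count. Rxrg rose (19.6 and 15.96 CPM at 2 months, 28.4 and 43.2 CPM at 24 months, log2 difference 1.16, edgeR adjusted p = 0.0455). Rxra fell (69.1 and 73.0 against 29.8 and 35.7 CPM, log2 difference -0.95, edgeR adjusted p = 0.0347). Of 18 other LXR targets, 13 were tested and 4 called, or 30.8% against 14.3% of all genes. Srebf1, which encodes the fatty acid synthesis regulator SREBP1, fell from 647.3 and 771.9 CPM to 164.0 and 228.6 CPM, and VAT was at 234.6 and 162.4 CPM (log2 difference -1.69, edgeR adjusted p = 0.00275). Tgm2, a transglutaminase (-1.58, 0.00269), and Mertk, a receptor for dead cells (-1.17, 0.0142), also fell, and Pltp, the phospholipid transfer protein, rose (1.26, 0.0487). Of the called targets 1 rose and 3 fell, and the median log2 difference of the 13 was 0.0048.

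Of the other sterol efflux and HDL genes, 3 of 8 tested were called, or 37.5% against 14.3% of all genes. Abca8b rose from 4.90 and 5.70 CPM to 34.6 and 24.2 CPM (log2 difference 2.62, edgeR adjusted p = 0.00214). Its neighbour and close copy Abca8a fell from 277.4 and 109.5 CPM to 36.7 and 49.99 CPM (-2.01, 0.00775), and reads of such copies are uncertain. Abca8a was also among the leading genes of a FAP cluster, and the part of FAP RNA in its adipocyte level was not tested. Cav1, the main protein of caveolae, rose from 365.5 and 208.7 CPM to 829.0 and 1247 CPM (2.00, 0.00246). Of the enzymes that make or break oxysterols, 2 of 7 were tested and 0 called.

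The SREBP2 genes of cholesterol synthesis and uptake, which are on when cell sterol is low, had 2 of 21 tested called, or 9.52% against 14.3% of all genes: Sc5d (log2 difference 1.55, edgeR adjusted p = 0.00316) and Hmgcs1 (1.56, 0.0116), both higher. Of 15 genes of sterol trafficking and storage tested, 4 were called, or 26.7% against 14.3% of all genes. Npc1, which releases cholesterol from lysosomes, fell from 108.8 and 100.3 CPM to 25.6 and 37.1 CPM (-1.55, 0.00291), and Lrp1, a receptor for APOE-bearing particles, from 1155 and 1441 CPM to 393.1 and 365.9 CPM (-1.61, 0.00266). Of the GRAMD1 proteins, which carry cholesterol from the plasma membrane, Gramd1a fell (-1.96, 0.0032) and Gramd1c rose from 7.62 and 5.70 CPM to 72.7 and 42.5 CPM (3.19, 0.000735), while VAT at 24 months held 12.1 and 11.8 CPM of Gramd1c.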

How the data were processed

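snRNA-seq of 6 libraries in 3 groups, set by tissue and age in the labels, was analysed. The authors captured nuclei with the Singleron GEXSCOPE kit and aligned and counted reads with Celescope on GRCm39; its version and settings are not given in the sources used here. As deposited, the matrices are raw counts of UMIs for every gene and barcode, not normalized (8061862 to 16226690 UMIs per library, 0 columns left unused). Members, lists and tests were chosen with earlier results of these data known.

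The study's filters were applied, keeping nuclei above 500 genes and 1000 UMIs whose mitochondrial share was under 15%. After scaling each nucleus and taking logs, 30 principal components of 1000 variable genes, corrected by library with a Harmony implementation, were clustered by Leiden (20 neighbours, resolution 2, then 1 within classes). Clusters took a name from marker lists when at least 3 markers were above 2-fold, with a mean log2 fold of at least 0.5 and 0.5 above the next list. This naming rule was adapted after clusters had been seen. Scrublet called 0.0519% to 0.562% of nuclei per library as doublets. These shares were taken as too low to rely on, which was not tested, and no doublets were removed.

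Within each library, counts were added up over the nuclei of a class where it had at least 20, and no depot call was made with 1 VAT library. The 3 groups entered 1 quasi-likelihood fit in edgeR 4.0.16 (R 4.3.3) (TMM, filterByExpr, no block), with two-sided p-values adjusted by Benjamini-Hochberg over all genes tested and a threshold of 0.05. The age difference was compared between classes by an interaction term over the 4 SAT libraries. DESeq2 1.42.0, library totals, no filter, a replicate block, a looser nuclei filter (300 genes, 500 UMIs), clustering without correction, removal of the 6% of nuclei with the highest Scrublet scores, and leaving out each library were alternatives; the Scrublet and further-class alternatives were added after seeing the data. The scripts were tested on simulated data. Shares of nuclei have exact (Clopper-Pearson) 95% intervals, which cover counting error only. All members were named; other genes were named where called within the lists, or as the 5 most like Eepd1, of which 1 is not reported here. Of the gene identifiers, 98.7% were found in GENCODE M39. Promoters were read from GRCm39 (Python 3.11.15, pysam 0.24.0); numpy 2.4.6, scipy 1.17.1, scikit-learn 1.9.0 and leidenalg 0.10.2 were used. Protein sequences were not used here.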

Additional observations from a re-analysis of the deposited data

Results flagged for a closer look

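The age difference in SAT differed between adipocytes and macrophages for 2 members, by the test of that difference itself. For Abcg1 it was 3.31 on the log2 scale (SE 0.45, edgeR adjusted p = 2.10e-10), beside 1.76 in adipocytes and -1.55 in macrophages in the separate fits of each class. For Nr1h3 it was 2.30 (SE 0.44, edgeR adjusted p = 2.05e-05), beside 0.31 in adipocytes and -1.94 in macrophages in those separate fits. Of these 4 values within single classes, the adipocyte value of Abcg1 passed the test and the other 3 did not. DESeq2 called both differences (adjusted p = 0.00107 for Abcg1 and 0.0369 for Nr1h3). The edgeR fit of the difference had 2 residual degrees of freedom and took its spread from all genes, not from the single gene. Macrophages also differed in makeup between the ages, and the part of that in the differences was not tested. No group held enough libraries to look for an outlying one.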

How the results depend on the processing

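Across the alternatives, 213 of 244 tested values kept their direction and side of the threshold, and 25 of 144 levels and 17 of 72 shares of nuclei moved by more than their spread, the 17 all without thinning. With age in SAT, the members called with 1 library left out numbered 0 to 1 in adipocytes and 0 to 2 in macrophages (1 without the filter on low counts); between the depots in FAPs they numbered 0 to 1 (Abca1, -2.02, without VAT replicate 1), and in adipocytes against FAPs 0 to 1. Pathway genes called in adipocytes numbered 9 to 19 with age with 1 library left out. Between the depots, where the count was 0, they numbered 1 with DESeq2, 3 without the filter, 1 with the looser nuclei filter, 1 with the replicate block and 0 to 3 with 1 library left out. Signs turned for Nr1h2 with age in adipocytes (DESeq2 0.073, no filter 0.24, left-out libraries -0.15 to 0.15), Apoe with age (left-out libraries -0.78 to 0.15), Abca1 with age in macrophages (looser filter 0.067), and between the depots for Abcg1 (DESeq2 -0.044, left-out libraries -0.30 to 0.34), Eepd1 (-0.30 to 0.44) and Abca1 (-0.13 to 0.31). The cause was not tested. The replicate block also ended the T cell call of Abcg1 (log2 difference -1.04, edgeR adjusted p = 0.0948). Same-numbered libraries did not deviate together (r = -0.082, 0.025 and 0.11), so numbers were not taken as pairs. Library totals in place of TMM moved the median of all genes with age in adipocytes to -0.17. Of all genes there, 1842 were called (868 higher, 974 lower), 1226 with DESeq2 (739 and 487), 2012 with library totals (656 and 1356), 2259 without the filter (1443 and 816) and 486 to 2304 with 1 library left out. Groups of 2 libraries, and classes with few nuclei, limit what could be detected.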
